A study of Mastomys natalensis with 3 samples.

Results

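The parietal cell genes of acid secretion were followed on 3 arrays of gastric mucosal cells from Mastomys natalensis, an African rodent whose stomach is prone to endocrine tumours. They were the proton pump subunits Atp4a and Atp4b, the histamine receptor Hrh2, the potassium channels Kcnj15 and Kcnq1, the exchanger Slc4a2, the carbonic anhydrase Car2, the water channel Aqp4, the membrane linker Ezr (ezrin) and the creatine kinase Ckb. Every probe set whose platform annotation gave 1 of these symbols was taken, whatever it read. This gave 16 probe sets for 10 genes, out of 8799 probe sets in all and 4736 genes with a singly named probe set.

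The parietal cell acidifies the stomach with a pump that exchanges protons for potassium. At rest the pump lies in internal tubulovesicles. Histamine released by neighbouring enterochromaffin-like (ECL) cells binds Hrh2, and the pump is then moved to the apical membrane. Potassium channels there return the potassium, while the cell makes protons from carbon dioxide and passes bicarbonate out at its base.

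The carcinoid array held RNA from mucosa that had formed an ECL cell carcinoid without treatment. The other arrays held RNA from animals given loxtidine for 16 weeks and for 8 weeks. Loxtidine blocks Hrh2. Each sample is described as enriched for ECL cells, so the parietal cell is not the cell type that was sought. The source field names gastric mucosa for the carcinoid and 16-week samples and ECL cells for the 8-week sample. No untreated healthy mucosa is among the 3 samples, and the number of animals is not given in the sources used here.

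There was 1 array per group. No difference below was tested or could be set against replicates, and each compares 2 arrays, not 2 conditions. The error at hand was how far probe sets of a gene lie from each other, in log2 units. Between 16 and 8 weeks this spread was 0.79, from 410 genes. Between carcinoid and 8 weeks it was 0.85, from 395 genes, and between carcinoid and 16 weeks 0.63, from 457 genes. Levels are intensities after quantile normalization, which gives all arrays the same distribution. Rat probes met Mastomys RNA, so a probe set's level is compared only with itself on another array. Values under a floor of 12.4, the pooled median, were raised to it, and a difference with 1 array below the floor is a bound, written "at least". Background was read from 30 control probe sets, chosen by name and taken to have no spiked or same-strand target. Whether any of them was spiked is not given in the sources used here. Of the 30, 7 of the carcinoid array, 7 of the 16-week array and 8 of the 8-week array also reached this floor. A level close to it is therefore hard to tell from background.

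The arrays differed in their controls. The ratio of the 3' to the 5' probe set of GAPDH, which rises as copies of the transcript become shorter, was 2.31 for carcinoid, 1.43 for 16 weeks and 8.95 for 8 weeks. The beta-actin ratio was 11.7 in the carcinoid, 6.71 at 16 weeks and 16.1 at 8 weeks. Both ratios were highest on the 8-week array. The 9 bacterial hybridisation controls were lowest on the carcinoid array. Their deposited median was 228 in the carcinoid, 345 at 16 weeks and 324 at 8 weeks. Before normalization the arrays also differed in level. The median log2 difference over the non-control probe sets was 0.42 at 16 against 8 weeks. It was 0.45 in the carcinoid against 8 weeks and 0.06 in the carcinoid against 16 weeks. Each array has its own lot label, and the effect of lot cannot be told apart from that of group. In the marker check, Hdc, which forms histamine from histidine, reached the floor on no array. The vesicular monoamine transporter Slc18a2, which loads histamine into ECL granules, read 23.2 in the carcinoid, 42.3 at 16 weeks and 21.8 at 8 weeks. That was its brightest probe set. Its other probe set was below the floor on every array, at 7.633 in the carcinoid, 0.867 at 16 weeks and 0.867 at 8 weeks.

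Of the 16 probe sets, 8 were at or above the floor on all arrays, 7 on some, and 1, that of Kcnq1, on none. The carcinoid and 16-week arrays each had 13 at or above the floor, and the 8-week array 10. Of all non-control probe sets about 50% reach the floor on each array, because it is the pooled median of arrays with the same distribution. Among the 15 that reached the floor somewhere, 6 were highest in the carcinoid, 5 at 16 weeks and 4 at 8 weeks. The share of all probe sets that were highest on each array is not given here. The group showed no single order of the 3 arrays, and its genes are given by role.

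**Figure D1:**
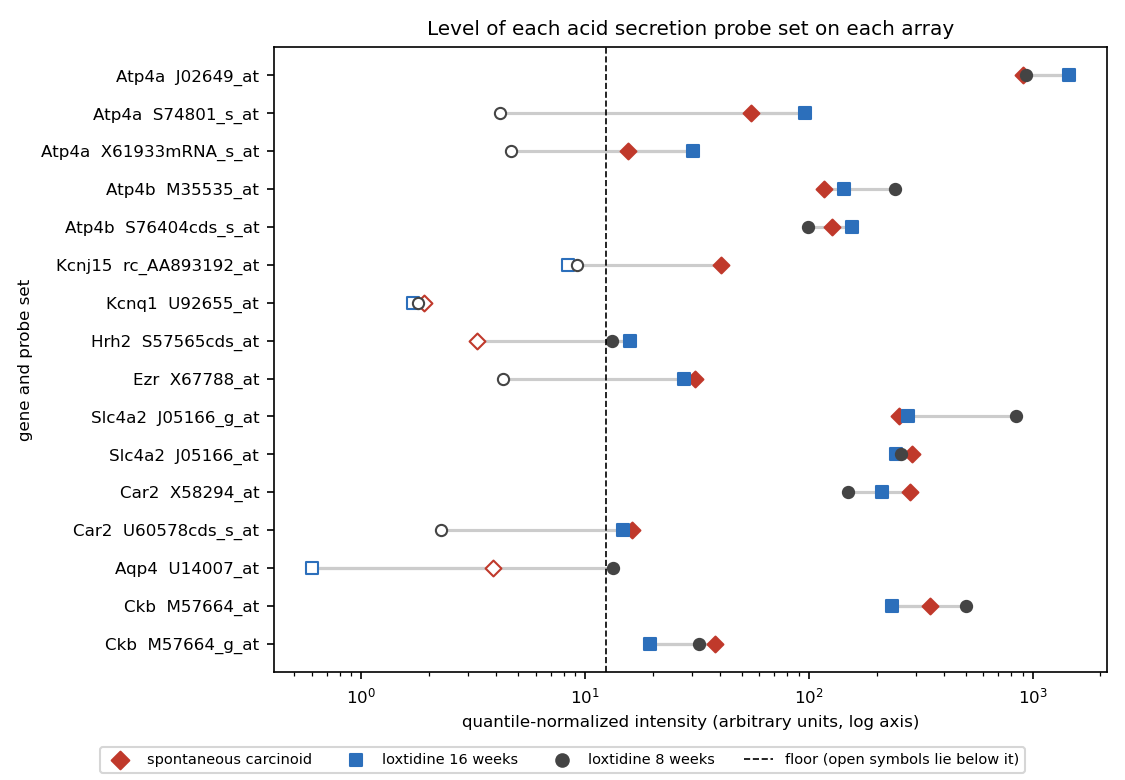
Quantile-normalized intensity (log axis) of the 16 probe sets, 1 row each, on the carcinoid, 16-week and 8-week arrays; the dashed line is the floor of 12.4 and open symbols lie below it. All 3 Atp4a rows have their highest symbol at 16 weeks, and 2 of them are open at 8 weeks.

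Atp4a, the catalytic subunit of the pump, gave its highest reading on the 16-week array with each of its 3 probe sets. The brightest, J02649_at, read 906 in the carcinoid, 1449 at 16 weeks and 932 at 8 weeks. The second, S74801_s_at, read 55.0 in the carcinoid, 95.5 at 16 weeks and 4.17 at 8 weeks. The last, X61933mRNA_s_at, read 15.6 in the carcinoid, 30.2 at 16 weeks and 4.67 at 8 weeks. The 8-week readings of the second and last were below the floor, whereas that of the brightest was close to the carcinoid reading.

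At 16 weeks Atp4a was therefore 1.55-fold higher than at 8 weeks on J02649_at, at least 7.70-fold higher on S74801_s_at and at least 2.43-fold higher on X61933mRNA_s_at. The first difference, 0.64 on the log2 scale, was within the spread between probe sets, and the bounds of the others exceeded it. As deposited, without normalization here, J02649_at read 1565.7 at 16 weeks against 554.7 at 8 weeks, which is 2.82-fold higher. On S74801_s_at the deposited readings were 101.9 against 3.5. All 3 probe sets stood higher at 16 than at 8 weeks under each of 7 other scalings and floors, although the bound of X61933mRNA_s_at shrank to 0.01 with the floor at 30.0.

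The carcinoid array against the 8-week array split the same probe sets. J02649_at differed by -0.04 on the log2 scale, S74801_s_at was higher on the carcinoid array by at least 4.44-fold, and X61933mRNA_s_at by at least 1.26-fold. As deposited J02649_at was 2.20-fold higher on the carcinoid array, 1218.1 against 554.7. The direction for the brightest probe set thus depended on the scaling in this comparison.

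The carcinoid array against the 16-week array gave the closest agreement. J02649_at was 1.60-fold lower on the carcinoid array, S74801_s_at 1.74-fold lower and X61933mRNA_s_at 1.93-fold lower, log2 differences of -0.68, -0.80 and -0.95. Each exceeded the spread of 0.63 between probe sets, and none reached 2-fold. Of all probe sets measured on both arrays, 85.5%, 89.0% and 92.9% had a higher difference than these. With the arrays scaled to the bacterial hybridisation controls, J02649_at turned to 0.24, while S74801_s_at shrank to -0.06 and X61933mRNA_s_at to -0.29. Under that scaling all 3 lay within the spread. In bulk RNA such as this, fewer parietal cells and less pump transcript per parietal cell cannot be told apart.

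Atp4b, the glycosylated beta subunit that the pump needs to leave the endoplasmic reticulum, gave different orders of the arrays with its 2 probe sets. Its probe set M35535_at read 116 in the carcinoid, 143 at 16 weeks and 243 at 8 weeks. Its probe set S76404cds_s_at read 126 in the carcinoid, 156 at 16 weeks and 98.9 at 8 weeks. The 8-week array was thus the highest of 3 for the first probe set and the lowest for the second, whose order was that of the dimmer Atp4a probe sets.

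For 16 against 8 weeks Atp4b differed by -0.77 on M35535_at and by 0.66 on S76404cds_s_at, both within the spread of 0.79. For carcinoid against 8 weeks the values were -1.06, a 2.08-fold lower reading, and 0.35. As deposited M35535_at was nearly flat, at 143.2 on the carcinoid array, 154.7 at 16 weeks and 153.0 at 8 weeks. Between carcinoid and 16 weeks both probe sets were lower on the carcinoid array, by -0.29 and -0.31, within the spread, and both turned positive with scaling to the hybridisation controls, at 0.49 and 0.50.

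Hrh2, the receptor that loxtidine blocks, was dim throughout. It read 3.30 in the carcinoid, 15.8 at 16 weeks and 13.1 at 8 weeks. Only the treated animals' arrays reached the floor, and by little. At 16 against 8 weeks it differed by 0.27, within the spread, and on the carcinoid array it was at least 1.28-fold lower than at 16 weeks and at least 1.06-fold lower than at 8 weeks. No Hrh2 reading reached 30.0, while 3 background controls of the carcinoid array, 0 of the 16-week array and 5 of the 8-week array did.

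Of the apical potassium channels, Kcnj15, an inward rectifier of the parietal cell, was above the floor on the carcinoid array alone. It read 40.3 in the carcinoid, 8.40 at 16 weeks and 9.17 at 8 weeks, and as deposited 46.0, 8.9 and 7.5 on the same arrays. Its carcinoid reading exceeded either other reading at least 3.25-fold. The bound was smaller with the floor at 30.0, at 0.43 on the log2 scale, and positive under every setting tried. Only 1 probe set, made from an expressed sequence tag, reports this gene. Kcnq1, the voltage-gated channel that recycles potassium for the pump, read 1.90 in the carcinoid, 1.70 at 16 weeks and 1.80 at 8 weeks, so no difference is given.

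Slc4a2, the exchanger that carries bicarbonate out and chloride in at the base of the cell, has 2 probe sets made from 1 sequence. J05166_g_at read 253 in the carcinoid, 275 at 16 weeks and 836 at 8 weeks. J05166_at read 288 in the carcinoid, 245 at 16 weeks and 257 at 8 weeks. The first was 3.30-fold lower on the carcinoid array than at 8 weeks and 3.04-fold lower at 16 weeks than at 8 weeks, and 97.6% and 97.4% of the probe sets measured on both arrays had a higher difference. The second differed by 0.17 and -0.06 in these comparisons. As deposited, J05166_g_at was still lower at 16 weeks (295.8 against 525.3), whereas J05166_at was higher (265.7 against 163.6).

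Car2, the cytosolic carbonic anhydrase that supplies protons and bicarbonate, ran in 1 order on both probe sets. X58294_at read 283 in the carcinoid, 212 at 16 weeks and 149 at 8 weeks. U60578cds_s_at read 16.1 in the carcinoid, 14.8 at 16 weeks and 2.27 at 8 weeks. The carcinoid array was highest and the 8-week array lowest under every scaling and floor that gave a value.

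The Car2 differences were nonetheless small. X58294_at was 1.90-fold higher on the carcinoid array than at 8 weeks, a log2 difference of 0.92 against a spread of 0.85. It was 1.42-fold higher at 16 than at 8 weeks and 1.34-fold higher on the carcinoid than on the 16-week array, both within the spread. As deposited the carcinoid reading was 3.56-fold the 8-week reading, 364.0 against 102.2. Against 8 weeks U60578cds_s_at was higher at least 1.30-fold on the carcinoid array and at least 1.19-fold at 16 weeks.

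Aqp4, a water channel of the basolateral membrane, barely reached the floor on the 8-week array and was below it elsewhere, with 3.87 in the carcinoid, 0.600 at 16 weeks and 13.3 at 8 weeks. No difference past its bound of 1.08-fold can be given. Ezr, which ties apical membrane folds to actin, read 31.0 in the carcinoid, 27.5 at 16 weeks and 4.30 at 8 weeks. Against 8 weeks it was higher at least 2.50-fold on the carcinoid array and at least 2.22-fold at 16 weeks, and it differed by 0.18 between carcinoid and 16 weeks. With the floor at 30.0, only the carcinoid reading was above it and the bound against 8 weeks was 0.05.

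Ckb, the brain-type creatine kinase that regenerates ATP and is abundant in parietal cells, was lowest on the 16-week array with both probe sets. M57664_at read 345 in the carcinoid, 234 at 16 weeks and 504 at 8 weeks. M57664_g_at read 38.0 in the carcinoid, 19.4 at 16 weeks and 32.1 at 8 weeks. At 16 weeks Ckb was 2.16-fold and 1.65-fold lower than at 8 weeks, of which the first exceeded the spread. On the carcinoid array it was 1.48-fold and 1.96-fold higher than at 16 weeks, of which the second exceeded the spread. Both probe sets are made from 1 sequence. Ckb was lower at 16 weeks than at 8 weeks and higher on the carcinoid than on the 16-week array under every setting. As deposited M57664_at read 442.0 in the carcinoid, 255.7 at 16 weeks and 345.2 at 8 weeks. Ckb is expressed in many cell types, and the probe sets do not tell them apart.

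**Figure D2:**
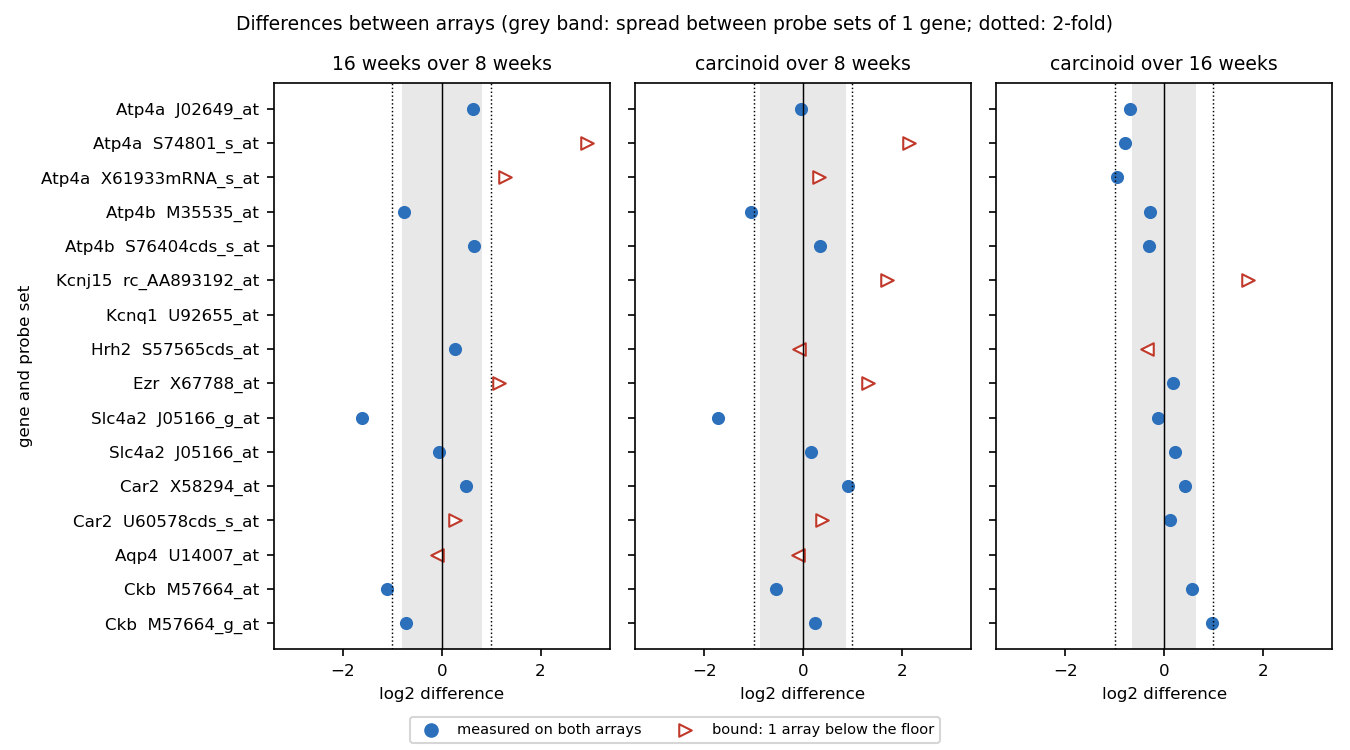
Log2 difference of each probe set (1 row each) in the 3 comparisons; filled circles were measured on both arrays, open triangles are bounds, the grey band is the spread between probe sets of 1 gene and dotted lines mark 2-fold. The 8-week comparisons scatter from -1.72 to 2.95, whereas in carcinoid over 16 weeks only the Kcnj15 bound of 1.70 passes 2-fold.

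The counts of probe sets at least 2-fold apart lay near those of the whole array. At 16 against 8 weeks 3 of 14 were higher (S74801_s_at and X61933mRNA_s_at of Atp4a, and Ezr) and 2 lower (J05166_g_at of Slc4a2, and M57664_at of Ckb). Over all 5586 probe sets with a value, 13.8% were higher and 13.0% lower, which over 14 would come to 1.94 and 1.82. As deposited the counts were 6 higher and 0 lower of 13, beside 21.8% and 6.36% of all probe sets. The median difference of the 14 was 0.26, against -0.005 for all probe sets with a value, and it was -0.06 over the 9 measured on both arrays.

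In the carcinoid against 8 weeks, 3 of 15 were higher (S74801_s_at of Atp4a, Kcnj15 and Ezr) and 2 lower (M35535_at of Atp4b and J05166_g_at of Slc4a2). The array-wide shares were 14.6% and 14.0%, or 2.19 and 2.10 over 15. As deposited the counts were 7 and 0 of 13, beside 25.8% and 6.04%. The median was 0.25, against -0.028 over all probe sets, and it was 0.06 over the 8 measured on both arrays. In the carcinoid against 16 weeks, 1 of 14 was higher (Kcnj15) and 0 lower, beside 9.38% and 9.69%, or 1.31 and 1.36 over 14. As deposited they were 2 and 0, beside 12.2% and 9.62%. The median was 0.00, against 0.006 over all, and it was 0.00 over the 12 measured on both arrays. In all 3 comparisons, every higher call after normalization was a bound, with the other array below the floor. Every lower call was measured on both arrays. No acid secretion probe set measured on both arrays was thus 2-fold higher in any comparison. The 3 comparisons share their arrays and are not independent.

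**Figure D3:**
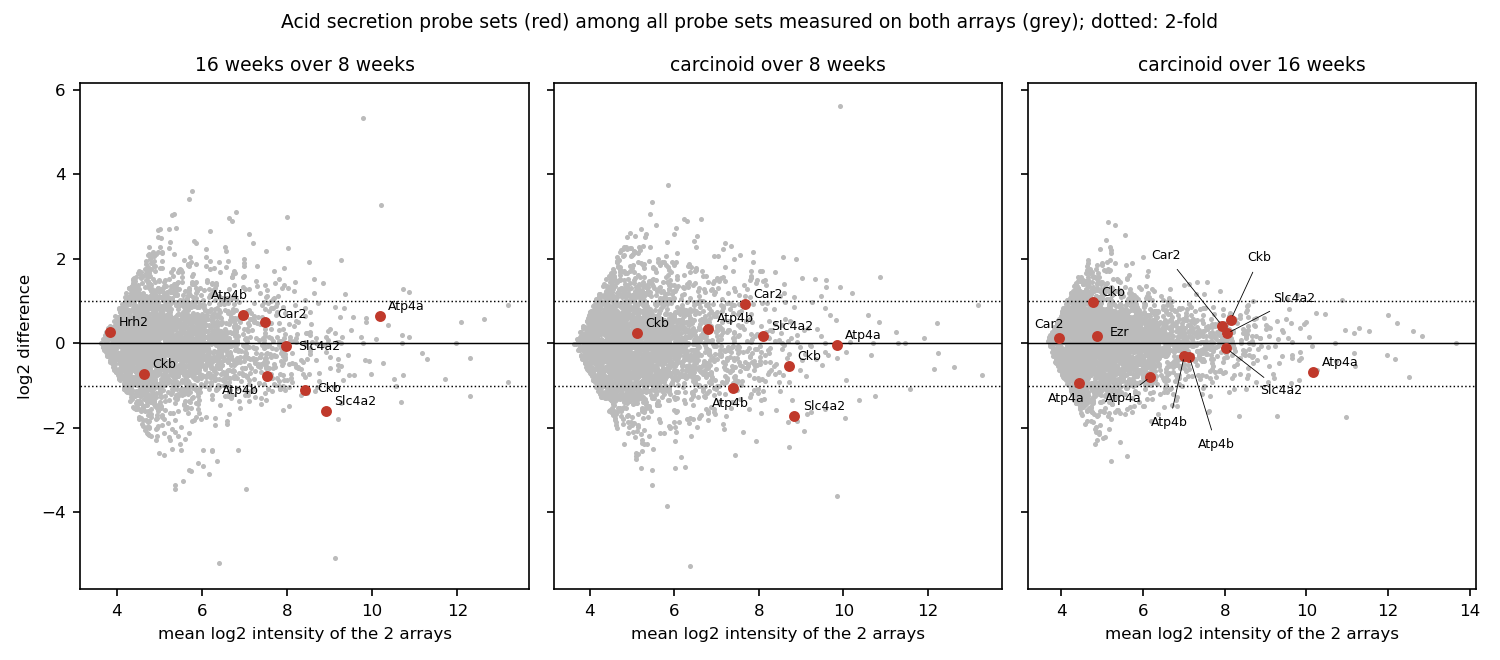
Log2 difference against mean log2 intensity for all probe sets measured on both arrays (grey) with the acid secretion probe sets named (red), for the 3 comparisons; dotted lines mark 2-fold. The named points lie inside the grey cloud, with J05166_g_at of Slc4a2 near its lower edge in both 8-week comparisons.

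Probe sets of the same gene disagreed mainly where the 8-week array took part. The gap between the 2 Atp4b probe sets was 1.43 (log2) between 16 and 8 weeks, 1.41 between carcinoid and 8 weeks, and 0.02 between carcinoid and 16 weeks. For Slc4a2 the gaps were 1.54, 1.89 and 0.35. For Atp4a the widest gap among 3 probe sets was at least 2.31, at least 2.19 and 0.27. For Ckb the gaps were 0.39, 0.79 and 0.41. Over all genes with several probe sets measured on both arrays, the median gap was 0.79, 0.91 and 0.67 in the same comparisons. For Car2 the gap was 0.30 in carcinoid against 16 weeks. Against 8 weeks its dimmer probe set gave only a lower bound under the value of the brighter, so no gap can be stated. The gaps of all 5 genes were thus under the array-wide median in carcinoid against 16 weeks. In both 8-week comparisons the gaps of Atp4a, Atp4b and Slc4a2 were over it, but not that of Ckb. The 8-week gaps of Atp4a rest on bounds, which the array-wide median leaves out. The 8-week array is the one with the highest 3' to 5' ratios. Where each probe set lies along its transcript was not used here, and the part of transcript shortening in these gaps was not tested.

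Genes around the acid secretory pathway were then counted from lists by role, with 1 value a gene, that of the brightest probe set. Over all genes on the array, 13.9% were at least 2-fold higher and 12.9% lower at 16 against 8 weeks. Between carcinoid and 8 weeks they came to 14.6% and 13.7%, and between carcinoid and 16 weeks to 9.41% and 9.29%. As deposited these shares were 22.7% and 6.32% at 16 against 8 weeks, 26.4% and 5.91% in carcinoid against 8 weeks, and 12.0% and 9.38% in carcinoid against 16 weeks. The deposited counts of each list below are to be read against them. The acid secretion genes themselves gave 1 higher and 2 lower of 8, then 2 and 2 of 9, then 1 and 0 of 8.

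Among receptors and signalling genes for acid stimulation, 34 of 40 had a probe set. At 16 against 8 weeks 5 were higher and 3 lower of 26 (9 and 1 as deposited), and for carcinoid against 8 weeks 7 higher and 2 lower of 27 (12 and 1 as deposited). For carcinoid against 16 weeks 4 were higher and 0 lower of 27. Prkar1b, a regulatory subunit of protein kinase A, was 2.73-fold higher at 16 weeks (114) than at 8 weeks (41.8). The calcium-dependent kinase Camk2d was 2.75-fold higher on the carcinoid array (135) than at 8 weeks (49.2), although its other probe set with a value differed by 0.27. Gnai2, an inhibitory G protein subunit, was 2.57-fold lower at 16 weeks (86.6) than at 8 weeks (223), and its other probe sets differed by -0.51 and -0.06. The gastrin receptor Cckbr, found on ECL and parietal cells, was 2.10-fold lower on the carcinoid array (35.3) than at 8 weeks (74.1), with a deposited difference of -0.44. Its other probe set was below the floor on both of these arrays.

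Of 30 further ion transporters of the parietal cell, 18 had a probe set and 13 reached the floor on some array. At 16 against 8 weeks 4 were higher and 2 lower of 13. The bicarbonate transporter Slc4a7 was 2.66-fold higher at 16 weeks (92.7) than at 8 weeks (34.9). The carcinoid array had 2 higher and 1 lower of 13 against 8 weeks, and 1 higher and 2 lower of 12 against 16 weeks. Slc9a3, a sodium-proton exchanger, was 2.23-fold lower on the carcinoid array (13.3) than at 16 weeks (29.6), and the sodium bicarbonate cotransporter Slc4a4 was 1.68-fold higher (61.3 against 36.5). On probe sets with 1 symbol, the proton exchangers Slc9a2 and Slc9a4 and the chloride channel Cftr were below the floor on every array. For Slc9a2, another probe set from the same sequence record has no symbol and was not counted. That probe set was above the floor on every array, so absence of the Slc9a2 transcript cannot be concluded.

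Relatives of the acid secretion genes did not keep 1 direction over the 3 comparisons. More were higher than lower at 16 against 8 weeks. Of 33 paralogues 23 had a probe set. At 16 against 8 weeks 6 were higher and 1 lower of 18 (7 and 0 as deposited), among them Slc4a3, another anion exchanger, at 2.30-fold. For carcinoid against 8 weeks the counts were 2 and 1 of 16, and the muscle creatine kinase Ckm was 3.28-fold lower on the carcinoid array (14.7 against 48.1). For carcinoid against 16 weeks they were 2 and 3 of 18. There the mitochondrial creatine kinase Ckmt1 was 3.03-fold higher (119 against 39.2), with -0.19 on its other probe set. The membrane-bound carbonic anhydrase Car4 was 3.30-fold lower (19.4 against 64.0), with 0.49 on its other probe set.

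Of 31 genes of tubulovesicle traffic and the apical cytoskeleton, 22 had a probe set. At 16 against 8 weeks 3 were higher and 0 lower of 14 (5 and 0 as deposited), and for carcinoid against 8 weeks 5 and 0 of 19 (8 and 0 as deposited). For carcinoid against 16 weeks 2 were higher and 1 lower of 19. The medians were 0.41, 0.52 and 0.33. The clathrin light chain Cltb was 5.93-fold higher on the carcinoid array (115) than at 16 weeks (19.4), and read 10.8 at 8 weeks. Of its 3 probe sets only this one had a value there, and the others were below the floor on both arrays compared. The clathrin heavy chain Cltc was 3.61-fold higher on the carcinoid array (73.1) than at 8 weeks (20.3). The small GTPase Rhoa was 2.45-fold lower on the carcinoid array (13.9) than at 16 weeks (33.9), and the syntaxin Stx1a was 1.70-fold lower (44.4 against 75.4), with 0.57 on its other probe set.

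Markers of other cells of the gastric wall were read beside the pump. Chief cell markers, with 5 of 8 on the array and all 5 above the floor somewhere, summed to 4087 in the carcinoid, 5005 at 16 weeks and 6159 at 8 weeks. Their order as deposited was different, at 4248 in the carcinoid, 6292 at 16 weeks and 4074 at 8 weeks. The pepsinogen gene Pgc, which makes up most of that sum, differed by -0.62 between carcinoid and 8 weeks, and by 0.01 as deposited. At the 2-fold mark 0 of the 5 were higher and 1 lower in carcinoid against 8 weeks, and 1 was higher and 1 lower of 4 at 16 against 8 weeks.

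Mucous cell markers, 6 of 8 on the array and all 6 above the floor on every array, summed to 1588 in the carcinoid, 1229 at 16 weeks and 1376 at 8 weeks. As deposited the 8-week array was the lowest, with 2052 in the carcinoid, 1299 at 16 weeks and 860 at 8 weeks. The mucin Muc5ac was 13.4-fold higher on the carcinoid array (212) than at 8 weeks (15.8), a log2 difference of 3.74, in the direction of the dimmer Atp4a probe sets. Its 8-week reading was close to the floor, and its other probe set differed by 2.22. Tff3, a secreted trefoil peptide, was 2.49-fold lower (25.2 against 62.6). ECL and neuroendocrine markers, 8 of 11 above the floor somewhere, summed to 157 in the carcinoid, 263 at 16 weeks and 265 at 8 weeks. In carcinoid against 8 weeks 0 were higher and 4 lower of 7 (1 and 1 of 6 as deposited), among them synaptophysin, Syp, at 2.14-fold lower and Chgb, a granule protein, at 2.12-fold lower.

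Leukocyte markers, 12 of 13 above the floor somewhere, summed to 149 in the carcinoid, 232 at 16 weeks and 288 at 8 weeks. The smooth muscle sums, with 6 of 8 above the floor, were 345 in the carcinoid, 284 at 16 weeks and 370 at 8 weeks. As deposited they were 420 in the carcinoid, 306 at 16 weeks and 254 at 8 weeks, so the 8-week array turned to the lowest. The endothelial sums, with 5 of 7, were 71.4 in the carcinoid, 70.0 at 16 weeks and 153 at 8 weeks. None of the 6 normalized sums was highest at 16 weeks, as Atp4a was. As deposited, however, the chief cell sum, the ECL and neuroendocrine sum (175 in the carcinoid, 281 at 16 weeks and 206 at 8 weeks) and the leukocyte sum (166 in the carcinoid, 248 at 16 weeks and 232 at 8 weeks) were highest there too. The part of the cell mixture in the Atp4a, Ckb or Car2 differences was not tested.

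The genes whose levels over the 3 arrays were most like those of Atp4a (J02649_at) were Syngr2, Atp7b, Sec61b, Stx1a and Olr1523. Likeness was the distance between centred log2 levels among 1747 genes at or above the floor on all arrays, and it lay between 0.029 and 0.068 for these 5. Sec61b, part of the channel that takes new proteins into the endoplasmic reticulum, read 47.1 in the carcinoid, 74.8 at 16 weeks and 46.3 at 8 weeks. Atp7b and Olr1523 lay near the floor, at 13.4 and 13.5 in the carcinoid and 13.9 and 13.3 at 8 weeks. The other Stx1a probe set, D12519_s_at, was lowest at 16 weeks, with 33.867 in the carcinoid, 22.75 at 16 weeks and 54.433 at 8 weeks. Those nearest to Atp4b (M35535_at) were Zfp37, Hfe, Syp, Cox8a and Gabra2, at 0.024 to 0.052. The distances rest on 3 arrays and on 1 probe set a gene, and are a description only. The other Atp4b probe set ran in a different order, and so did the dimmer Atp4a probe sets.

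**Figure D4:**
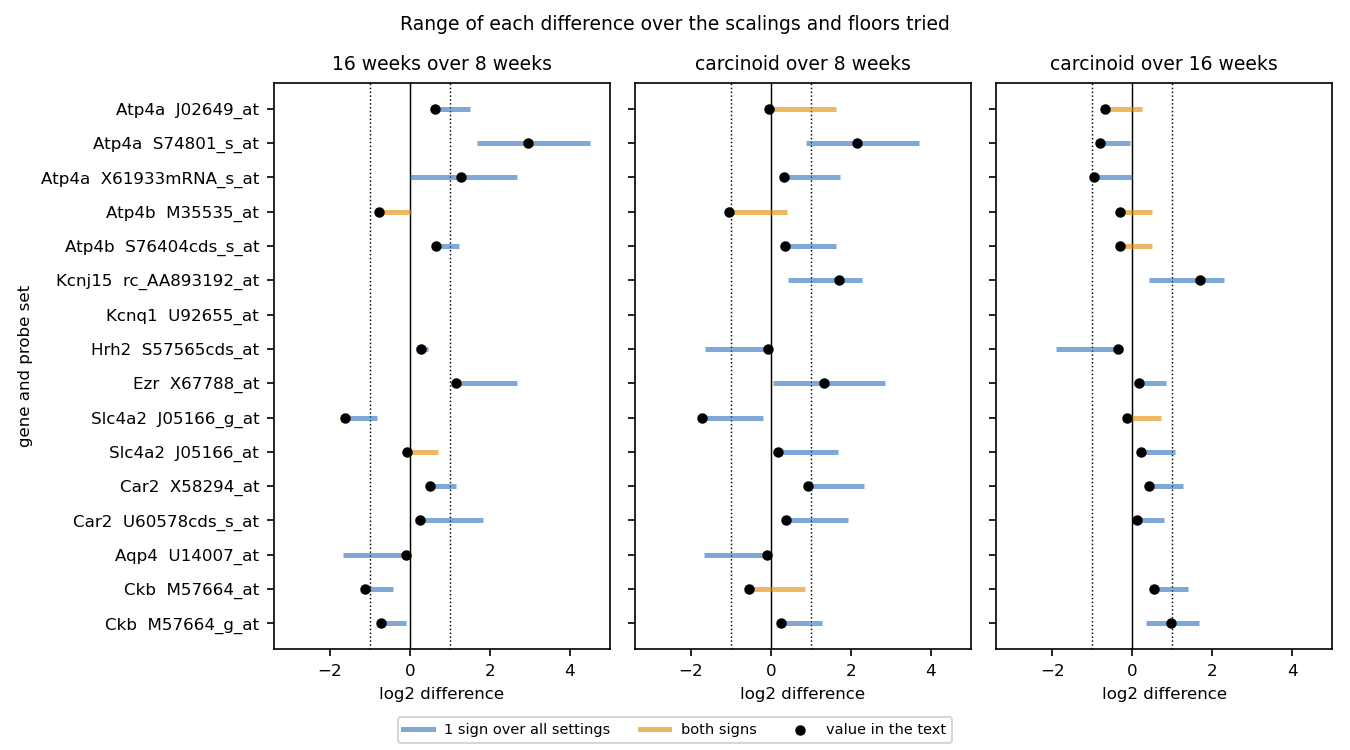
Range of each probe set's log2 difference (bars) over all scalings and floors that gave a value, with the value in the text as a black point, for the 3 comparisons; orange bars hold both signs. The bars of Ckb in 16 over 8 weeks and of Car2 in all comparisons stay on 1 side of 0, and those of Atp4b M35535_at hold both signs in all 3.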

How the data were processed

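The authors deposited a linear intensity for each probe set of 3 Affymetrix rat arrays. How it was summarized, corrected for background and scaled is not given in the sources used here. Groups came from the sample descriptions in the labels. Gene symbols came from the platform annotation, which gave 1 symbol for 7006 of 8740 non-control probe sets, several for 308 and none for 1426. Only probe sets with 1 symbol were named, and no acid secretion gene was on a probe set with several.

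Arrays were quantile-normalized over the non-control probe sets, with Python 3.11.15 and numpy 2.4.6. The floor was the pooled median, 12.4, and differences are in log2 units. A probe set was counted as apart when its difference or bound reached 2-fold. The deposited intensity gives no depth, and the number of arrays limits the precision. The spread between probe sets was the root mean square difference of 2 probe sets of a gene, divided by the square root of 2, and holds no variation between animals. With 1 array per group no test was run. The steps were tested on simulated data.

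Alternatives were the values as deposited, scaling by the median, floors at the 25th and 75th percentile (4.20 and 30.0), log2 of the value plus the floor, and 1 probe set a gene. Scaling to the 9 hybridisation controls, and normalizing only the 2 arrays compared, were added after the data had been seen. The members and lists were chosen with earlier results of these data known. All members are given. From each list the rule named, in each direction, the 2 largest differences measured on both arrays, and for Atp4a and Atp4b the 5 genes with the nearest pattern. Not all of the marker genes it took are printed. No sequences of these probe sets were used here.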

Additional observations from a re-analysis of the deposited data

How the results depend on the processing

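With the values as deposited, 6 acid secretion probe sets were at least 2-fold higher and 0 lower at 16 against 8 weeks, 7 and 0 in carcinoid against 8 weeks, and 2 higher in carcinoid against 16 weeks. Scaling to the hybridisation controls left median log2 differences of 0.32, 0.96 and 0.66 over the non-control probe sets. The counts were then 6 and 0, 8 and 0, and 5 and 0. The shares of all probe sets beside them were 18.4% and 5.71%, 42.6% and 3.15%, and 30.6% and 4.15%. Under this scaling M35535_at of Atp4b turned to 0.41 in carcinoid against 8 weeks, and the cause was not tested. Scaling by the median gave 4 higher and 1 lower in both 8-week comparisons. The shares of all probe sets were 14.9% and 11.5% at 16 against 8 weeks, and 16.1% and 12.2% in carcinoid against 8 weeks. With the floor at 30.0, fewer probe sets had a value. The higher counts were then 1, 0 and 0 in the 3 comparisons, beside 6.99%, 8.10% and 2.87% of all. The lower counts were 2, 2 and 0, beside 6.22%, 7.17% and 2.98%. With the floor at 4.20, more had a value. At 16 against 8 weeks 4 were then higher and 3 lower (21.6% and 20.8% of all). In carcinoid against 8 weeks 5 were higher and 4 lower (22.1% and 21.5%), and against 16 weeks 1 and 1 (18.4% and 17.7%). The value plus the floor gave 3 higher and 1 lower of 16 in carcinoid against 8 weeks, beside 8.96% and 8.32% of all. With 1 probe set a gene, 1 was higher and 2 lower of 8 at 16 against 8 weeks, beside 13.9% and 12.9% of genes. Normalizing only the compared arrays left all 43 differences within the spread between probe sets of the reported values, as did scaling by the median. The values as deposited moved 7 of 40 past it, the floors 12 of 43 and 7 of 33, and the hybridisation controls 20 of 40, counting the Atp4b reversal. No paired analysis was possible because each group has 1 array. Signal near the floor limits Hrh2, Kcnq1, Aqp4, X61933mRNA_s_at of Atp4a and U60578cds_s_at of Car2.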
